A study of Mus musculus with 31 samples.

Results

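The genes described here are 10 genes of the unfolded protein response, the program a cell starts when misfolded proteins collect in the endoplasmic reticulum (ER). They were chosen by gene symbol as members of this response that have been reported to respond to deltamethrin. All 10 were found in the deposited table of 48795 mouse genes, and all 10 were among the 19529 genes with enough counts to be tested. Total RNA from homogenised mouse brain was sequenced in 31 libraries. The agent label placed 13 libraries in control and 18 in deltamethrin, a pyrethroid insecticide that holds voltage-gated sodium channels open, and the series title describes the exposure as developmental. The labels give no vehicle, dose, route, age at exposure or collection, sex, strain, genotype or litter for either group, and do not say whether each library is a separate animal. The p-values below therefore measure the spread between these libraries, which may be partly technical.

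The ER is where secreted and membrane proteins are folded, with the help of the chaperones BiP (Hspa5) and GRP94 (Hsp90b1). Misfolded proteins draw BiP away from the membrane sensors PERK (Eif2ak3), IRE1 (Ern1) and ATF6 (Atf6). PERK slows translation while favouring that of the transcription factor ATF4 (Atf4), which induces CHOP (Ddit3) and the pseudokinase Trib3. IRE1 excises a short segment from Xbp1 mRNA, and the spliced form encodes an active transcription factor. ATF6 is cut in the Golgi and its released part enters the nucleus, where it raises chaperone genes. In neurons, which make large amounts of membrane protein, lasting activity of the response has been linked to cell death through CHOP and, in rodents, caspase-12 (Casp12).

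The promoters of some ER chaperone genes hold the element through which ATF6 and XBP1 are known to act, the ER stress response element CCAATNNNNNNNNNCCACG. It was searched for on both strands of the RefSeq promoter windows (GRCm38.p6), which run from 250 bases before to 50 bases after each gene's start. It was present in 39 of 32851 windows (0.119%). Of the 9 members with a window, it was present in Hspa5 once and in Hsp90b1 2 times. The 250 bases before the start of both genes are shown because they are the pair of members that share this element, 5′ to 3′ on the gene's strand, with the fixed bases of each match in capitals.
Hspa5, chr2:34771840-34772089, plus strand: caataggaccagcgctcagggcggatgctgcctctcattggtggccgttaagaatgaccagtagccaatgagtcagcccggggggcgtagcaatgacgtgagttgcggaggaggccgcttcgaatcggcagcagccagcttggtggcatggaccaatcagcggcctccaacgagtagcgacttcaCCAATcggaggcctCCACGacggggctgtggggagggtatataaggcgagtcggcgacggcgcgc
Hsp90b1, chr10:86705445-86705694, minus strand: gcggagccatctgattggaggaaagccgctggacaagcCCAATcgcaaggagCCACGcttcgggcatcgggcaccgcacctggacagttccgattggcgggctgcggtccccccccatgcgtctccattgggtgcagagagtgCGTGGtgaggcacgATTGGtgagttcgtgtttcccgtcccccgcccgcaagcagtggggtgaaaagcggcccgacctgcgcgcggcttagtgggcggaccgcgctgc
The match in Hspa5 begins at position -65 from the RefSeq start. Those in Hsp90b1 begin at -212, in the same orientation, and at -107, in the opposite orientation. Among 20 further targets and partners of the sensors, 18 had a window and 6 held the element, namely Calr, Canx, Creld2, Dnajc3, Pdia6 and Syvn1. The composite site TGATGNAA, bound by ATF4 with C/EBP proteins, was in 3.97% of all windows and, among members, in that of Trib3 at position 14 in the opposite orientation. The unfolded protein response element TGACGTGG (0.676% of windows) was in no member's window. Each match describes letters in a window, and its absence says only that these letters are not there.

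The segment of Xbp1 mRNA that IRE1 removes is 26 bases of exon 4, at chr11:5524279-5524304 on the plus strand of GRCm38 in the GENCODE M21 annotation. It is shown with 9 bases on either side, the removed bases in capitals, because it sets what a count of Xbp1 can tell.
Xbp1: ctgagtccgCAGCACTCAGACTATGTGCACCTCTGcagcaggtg
A count per gene adds reads of both forms, so the level of Xbp1 given below says nothing of how much was spliced. The activity of PERK and ATF6 is likewise set on the protein and is not read by these counts.

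All 10 genes were detected in every library, over a wide range of levels. Levels are given as CPM, counts divided by the library's size with all sizes brought to one common unit, here with sizes scaled by the trimmed mean of M-values (TMM), and between genes as CPM per kilobase of exon. Atf4 was highest, at 30.2 ± 4.98 CPM per kilobase (SD, n = 31), followed by Hspa5 at 27.2 ± 4.38, Hsp90b1 at 26.7 ± 4.18 and Xbp1 at 22.4 ± 3.41. These 4 lay between percentiles 90.5 and 93.1 of the tested genes, and their ranges overlapped. Atf4 was above Hspa5 in 21 of 31 libraries and Hspa5 above Hsp90b1 in 14 of 31, so the order of these neighbours was not fixed. Ddit3 followed at 14.7 ± 3.04 CPM per kilobase, and was below Xbp1 in all 31 libraries although their ranges touched across libraries.

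The sensors were lower than the chaperones and the transcription factors, and higher than Trib3 and Casp12. Atf6 stood at 7.27 ± 0.870 CPM per kilobase (SD, n = 31), Eif2ak3 at 3.57 ± 0.379 and Ern1 at 1.16 ± 0.177, with no overlap between neighbours from Ddit3 down to Trib3. The lowest were Trib3 at 0.393 ± 0.130 and Casp12 at 0.250 ± 0.0653 CPM per kilobase, whose ranges overlapped and whose order held in 28 of 31 libraries. Trib3 had 9 to 49 counts in a library and Casp12 15 to 46. At their median counts of 26 and 29, counting error alone gives a coefficient of variation of 19.6% and 18.6%. For Hspa5, with 713 to 6056 counts and a median of 3601, that error is 1.67%.

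None of the 10 genes differed between deltamethrin and control after adjustment over all genes (edgeR quasi-likelihood F-test, Benjamini-Hochberg). This was so for every gene of the table, 0 of 19529 (0%), and the smallest adjusted p of any gene was 0.441. An unadjusted p under 0.05 was reached by 1 of the 10 members, Hsp90b1, and by 853 of 19529 genes (4.37%). Of the members, 5 were higher and 5 lower in deltamethrin, with a median log2 fold change of -0.01, against 0.00 over all genes tested. The 95% intervals of the fold changes of the 8 members other than Trib3 and Casp12 lay between 0.775 and 1.26.

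**Figure D1:**
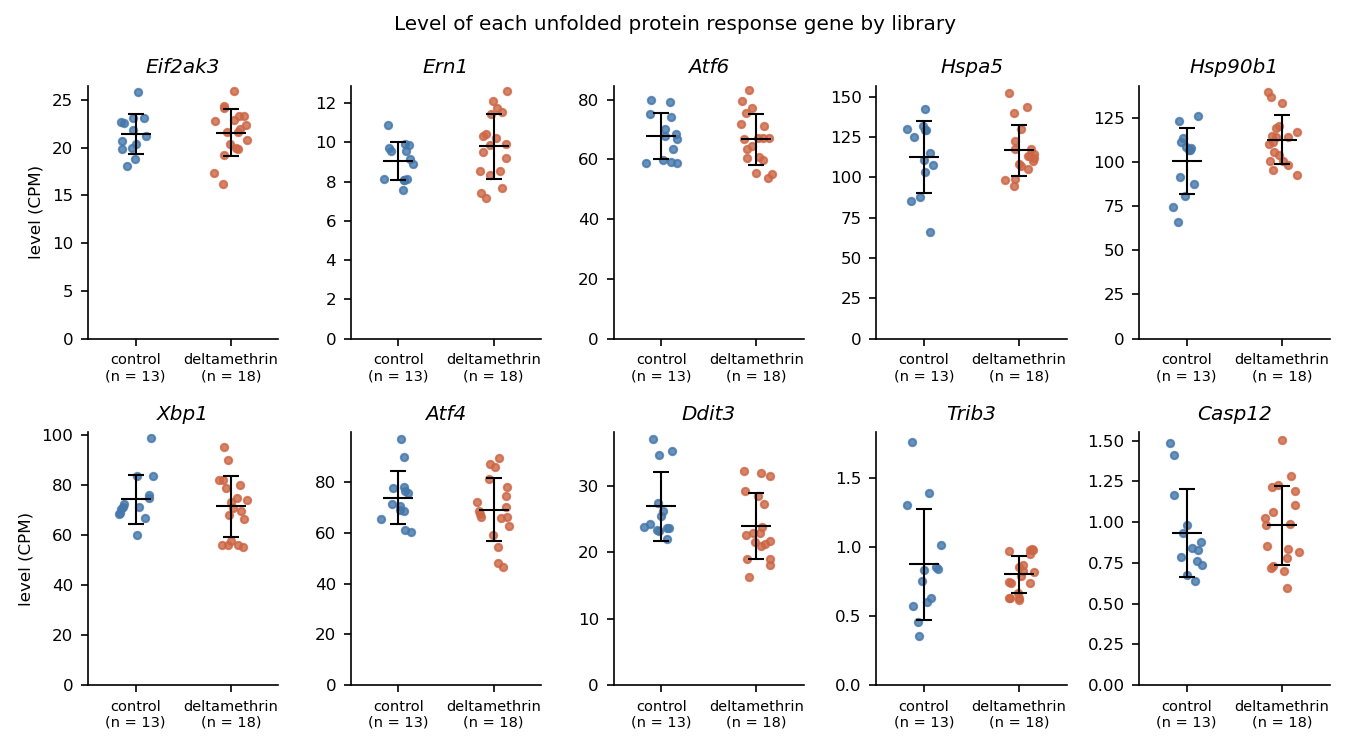
Level of each of the 10 genes in every library, in TMM-scaled CPM on a separate axis per gene, for control (n = 13) and deltamethrin (n = 18); each point is a library and the bar is the group mean with its SD. The groups overlap for every gene, and for Hsp90b1 5 of 13 control libraries lie below the deltamethrin minimum.

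Of the chaperones, Hspa5 (ENSMUSG00000026864, chr2:34771970-34777547, GENCODE M21) encodes BiP, which binds unfolded chains and holds the sensors inactive. Its level in control ran from 66.2 CPM over a median of 115 to 142, and in deltamethrin from 94.3 over 113 to 152. The groups overlapped almost fully, although 3 control libraries were below every deltamethrin library and 2 deltamethrin libraries were above every control. Means were 113 ± 22.2 CPM (SD, n = 13) and 117 ± 15.8 (SD, n = 18). The log2 fold change was 0.05 ± 0.09 (SE; unadjusted p = 0.570, adjusted p = 0.902, edgeR), a fold change with a 95% interval of 0.915 to 1.17. The GENCODE M21 gene begins inside the RefSeq window printed above and before the marked element, which so lies within the annotated gene. For Hsp90b1 the GENCODE M21 gene also begins inside the printed bases, but after the marked matches.

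Hsp90b1 (ENSMUSG00000020048, chr10:86690209-86705509) encodes GRP94, a chaperone of secreted and membrane proteins such as integrins. Control libraries ran from 66.1 CPM over a median of 107 to 126, and deltamethrin libraries from 92.7 over 113 to 139.5. Here 5 control libraries were below every deltamethrin library and 3 deltamethrin libraries above every control, while 11 of 18 deltamethrin libraries were above the control median. Means were 100.5 ± 18.6 CPM (SD, n = 13) and 113 ± 13.7 (SD, n = 18). The log2 fold change was 0.17 ± 0.08 (SE), a fold change of 1.12 with a 95% interval of 1.001 to 1.26. Its unadjusted p was 0.0483 and its adjusted p 0.813 (edgeR), so it did not pass the test across genes, in which its p ranked 807 of 19529.

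The unadjusted p of Hsp90b1 depended on single libraries. It was 0.109 without control replicate 2, 0.0987 without control replicate 10 and 0.0905 without control replicate 11, the control libraries with the lowest levels of the gene (66.1, 74.6 and 80.7 CPM). Control replicate 2 had the lowest total count and the highest share of mitochondrial rRNA of the 31 libraries, and the log2 fold change without it was 0.12. The p was also over 0.05 without control replicates 7 or 13 and without deltamethrin replicates 1, 2, 3, 6, 7, 15 or 17 (0.0502 to 0.0799), and under it in the other 19 of 31 such fits. Some reads counted for Hsp90b1 could also come from 1810014B01Rik, a pseudogene on the opposite strand that overlaps it and had a mean of 1.76 CPM, since the use of strand in counting is not given in the sources used here. Gm15344 (mean 0.373 CPM) overlaps Hsp90b1 on the same strand, where knowledge of strand would not tell the reads apart.

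The sensors had small differences between the groups. Eif2ak3 (ENSMUSG00000031668, chr6:70844515-70905245), the kinase PERK, ran from 18.1 CPM over a median of 21.3 to 25.9 in control and from 16.2 over 21.8 to 25.99 in deltamethrin, which is nearly the same range. Its log2 fold change was 0.01 ± 0.06 (SE; unadjusted p = 0.864, edgeR), with a 95% interval of the fold change of 0.926 to 1.10. Atf6 (ENSMUSG00000026663, chr1:170704674-170867771) ran from 58.6 CPM over 67.8 to 80.02 in control and from 53.9 over 67.0 to 83.1 in deltamethrin. Here 3 deltamethrin libraries were below every control and 1 above. Its log2 fold change was -0.02 ± 0.07 (unadjusted p = 0.713, edgeR; interval of the fold change 0.897 to 1.08). Ern1 (ENSMUSG00000020715, chr11:106394650-106487852), the kinase and endoribonuclease IRE1, ran from 7.58 CPM over 9.14 to 10.9 in control and from 7.14 over 9.90 to 12.6 in deltamethrin. Of the 18 deltamethrin libraries, 12 were above the control median and 5 above every control, but 2 were below every control. Its log2 fold change was 0.11 ± 0.08 (SE; unadjusted p = 0.153, edgeR), with an interval of the fold change of 0.970 to 1.21.

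The transcription factors were all lower on average in deltamethrin, by less than the spread of the libraries. Atf4 (ENSMUSG00000042406, chr15:80255184-80257541) ran from 60.2 CPM over a median of 71.4 to 97.1 in control and from 46.7 over 68.0 to 89.6 in deltamethrin. At the low end, 4 deltamethrin libraries were below every control, and at the high end 2 controls were above every deltamethrin library. Its log2 fold change was -0.10 ± 0.09 (SE; unadjusted p = 0.264, edgeR). Xbp1 (ENSMUSG00000020484, chr11:5520659-5525893) ran from 59.9 CPM over 71.4 to 98.9 in control and from 55.3 over 72.0 to 95.1 in deltamethrin. The medians lay within 1 CPM of each other, and the log2 fold change was -0.06 ± 0.08 (SE; unadjusted p = 0.478, edgeR).

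Ddit3 (ENSMUSG00000025408, chr10:127290774-127296288) encodes CHOP, the factor that links the response to cell death. It ran from 22.05 CPM over a median of 24.3 to 37.1 in control and from 16.3 over 22.8 to 32.3 in deltamethrin. Of the deltamethrin libraries, 8 were below every control, and 3 controls (replicates 2, 10 and 11) were above every deltamethrin library. Means were 26.96 ± 5.18 CPM (SD, n = 13) and 23.95 ± 5.001 (SD, n = 18). The log2 fold change was -0.17 ± 0.10 (SE; unadjusted p = 0.0972, adjusted p = 0.813, edgeR), with a 95% interval of the fold change of 0.775 to 1.02. Ddit3 overlaps Mars, a tRNA synthetase gene on the opposite strand with a mean of 33.6 CPM, and without knowledge of strand the reads of the overlap cannot be told apart. A GENCODE M21 gene of the same name overlaps the exons of Ddit3 on the same strand, and was absent from the genes counted.

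Trib3 (ENSMUSG00000032715, chr2:152337422-152344032), a target of ATF4 and CHOP, was spread more widely in control. It ran from 0.359 CPM over a median of 0.835 to 1.76 in control and from 0.619 over 0.805 to 0.990 in deltamethrin. Thus 4 control libraries lay above and 4 below the whole deltamethrin range. The coefficient of variation was 45.8% in control and 16.8% in deltamethrin, the latter below the counting error at the median count. The difference in spread was not tested. Means were 0.877 ± 0.402 CPM (SD, n = 13) and 0.804 ± 0.135 (SD, n = 18), and the log2 fold change was -0.10 ± 0.16 (SE; unadjusted p = 0.566, edgeR). Its sign turned without control replicate 10, the library with the highest level (1.76 CPM), to 0.04.

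The 3 control libraries with the highest Trib3 also had the highest Ddit3, a match picked after the values were seen. Control replicate 13 was above the deltamethrin range for Trib3 too (1.01 CPM), but had 26.2 CPM of Ddit3, under the control mean of 26.96. Control replicates 2, 10 and 11 had 1.39, 1.76 and 1.30 CPM of Trib3 and 37.1, 35.3 and 34.6 CPM of Ddit3, the 3 highest controls for both genes. The same libraries had the 3 lowest control levels of Hsp90b1, and replicates 10 and 11 the highest of Atf4 (97.1 and 89.9 CPM). Their share of mitochondrial rRNA was 40.2%, 13.97% and 22.4%, from near the control median of 12.9% up to the highest of all libraries. Casp12 (ENSMUSG00000025887, chr9:5345430-5373032), the ER-resident caspase of rodents, did not follow them, with 1.49, 0.936 and 0.675 CPM in these libraries. It ran from 0.638 CPM over a median of 0.841 to 1.49 in control and from 0.598 over 0.985 to 1.504 in deltamethrin. Its log2 fold change was 0.09 ± 0.14 (SE; unadjusted p = 0.533, edgeR), with a 95% interval of the fold change of 0.874 to 1.29.

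**Figure D2:**
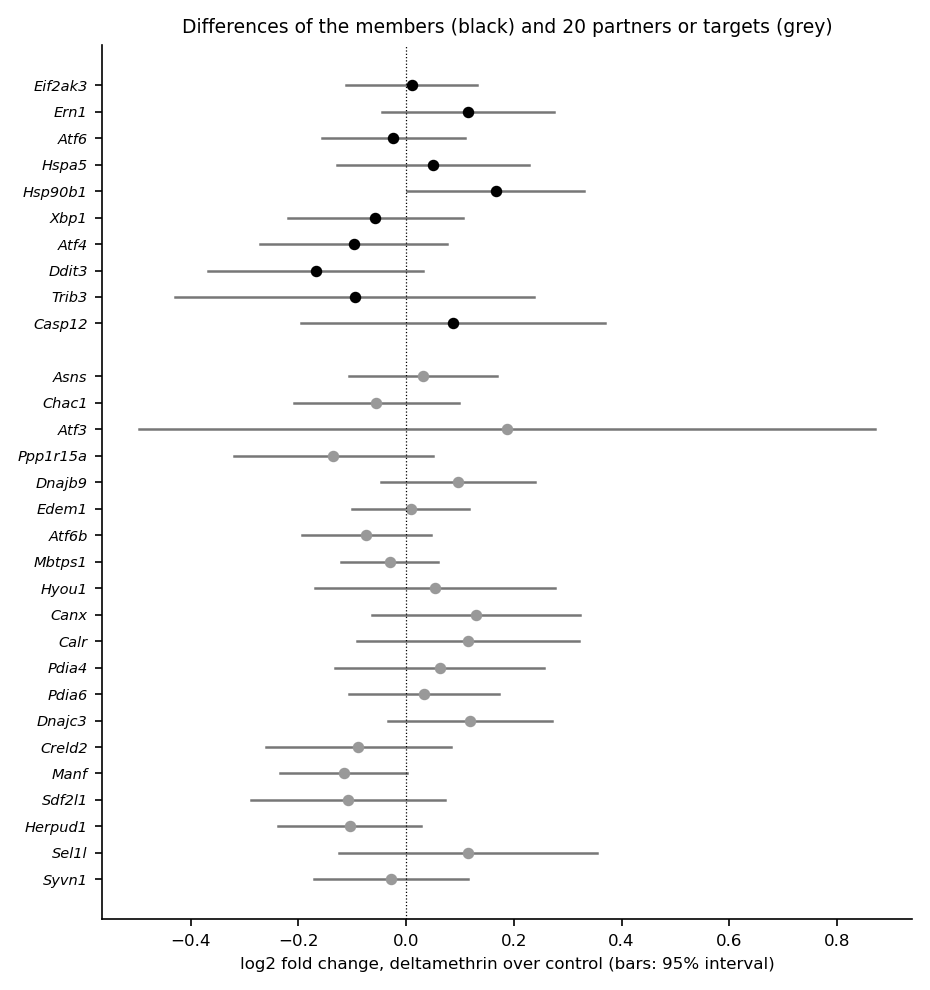
Log2 fold change of deltamethrin over control (horizontal axis) for the 10 members and 20 targets and partners, with 95% intervals from edgeR's quasi-likelihood fit; the dotted line marks no change. The intervals of all but Hsp90b1 cross 0, and none passes after adjustment over all genes.

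Of 110 further genes in 8 lists, 109 were tested, and IRE1's gut-restricted relative Ern2 was too low. Among the 109, 59 were higher and 50 lower, with a median log2 fold change of 0.01 (all genes 0.00) and a range of -0.30 (Bloc1s1) to 0.25 (Eif2ak2), wider than the -0.17 to 0.17 of the members. None had an adjusted p under 0.05 and none an unadjusted p under 0.05 (edgeR), against 4.37% of all genes; the smallest was 0.0523, for Bak1, which promotes apoptosis at mitochondria. DESeq2 gave 0 adjusted and 3 unadjusted p-values under 0.05 in these lists. The PERK and ATF4 branch had 10 genes higher and 12 lower (median log2 fold change -0.02). The IRE1 and XBP1 branch had 7 higher and 6 lower (median 0.01), and the ATF6 branch 6 higher and 5 lower (median 0.02). The 21 further ER chaperones and folding enzymes split into 12 higher and 9 lower (median 0.02), the 18 genes of ER-associated degradation into 9 and 9 (median 0.00), and the 11 cell death genes into 7 and 4 (median 0.01). The other 3 kinases of the translation factor eIF2α were all higher, at log2 fold changes of 0.02 for Eif2ak1 and Eif2ak4 and 0.25 ± 0.13 (SE; unadjusted p = 0.0655, edgeR) for Eif2ak2, which senses double-stranded RNA and was at 3.35 ± 0.832 CPM in control and 4.03 ± 1.09 in deltamethrin. The 10 cytosolic heat shock genes, which answer misfolding outside the ER, split into 5 and 5 (median 0.02).

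None of the 20 named targets and partners reached an unadjusted p under 0.05 (edgeR). Of the chaperones with the ER stress response element, Calr (calreticulin) had a mean of 165 CPM (SD 34.9, n = 13) in control libraries and 178 CPM (SD 28.7, n = 18) in deltamethrin libraries, and its log2 fold change was 0.11 ± 0.10 (SE; unadjusted p = 0.268). For Canx (calnexin) the means were 243 ± 41.9 and 266 ± 51.2 CPM, with a difference of 0.13 ± 0.09 on the log2 scale (unadjusted p = 0.179). Dnajc3, a co-chaperone of BiP that also restrains PERK, differed by 0.12 ± 0.07 on the log2 scale (unadjusted p = 0.122). The values for Pdia6, a disulfide isomerase, Syvn1, the ubiquitin ligase of ER-associated degradation, and the secreted Creld2 were 0.03, -0.03 and -0.09. The isomerase Pdia4, whose window did not hold the element, was at 0.06, and the chaperone Hyou1, which had no window to search, at 0.05. The smallest unadjusted p of the 20 was that of Manf, a neurotrophic factor released from stressed ER, at 31.3 ± 2.58 against 28.8 ± 3.48 CPM (log2 fold change -0.12 ± 0.06, p = 0.0542, edgeR).

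Targets of the ATF4 arm were likewise close to no change. Ppp1r15a, which encodes the phosphatase subunit that restores translation, was at 12.4 ± 2.55 CPM in control and 11.3 ± 1.97 in deltamethrin (log2 fold change -0.14 ± 0.09 SE, unadjusted p = 0.145). Chac1, which degrades glutathione, had a log2 fold change of -0.06, and Asns, which makes asparagine, 0.03. Atf3 was low in both groups, at 0.574 ± 0.286 and 0.659 ± 0.870 CPM, and 1 deltamethrin library reached 4.10 CPM (log2 fold change 0.19 ± 0.34, unadjusted p = 0.581). For IRE1 targets, Dnajb9 and Edem1 had log2 fold changes of 0.10 and 0.01. The degradation genes Herpud1 and Sel1l were at -0.10 and 0.11, and the BiP partner Sdf2l1 at -0.11. Atf6b, the paralog of ATF6, and Mbtps1, the protease that cuts it, were at -0.07 and -0.03.

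Although no member passed the test between the groups, the members varied together from library to library. Of 45 pairs of members, 35 were correlated across the 31 libraries (log2 CPM, two-sided permutation p adjusted over the 45 pairs under 0.05), 16 positively and 19 negatively. An r of at least 0.439 in size, that of the smallest called pair, was found in 35 of 45 member pairs (77.8%), in 28.9% of all pairs of tested genes and in 43.4% of pairs of genes of at least 5 CPM on average, so correlated pairs were common in these libraries. The genes fell on opposing sides. The chaperones and the sensors (Hspa5, Hsp90b1, Atf6, Ern1, Eif2ak3) were high in the same libraries, and were low where the transcription factors Xbp1, Atf4 and Ddit3 were high. Casp12 correlated with none. With library sizes left unscaled, only 15 pairs were called, 13 positive and 2 negative. Unscaled sizes include the mitochondrial rRNA described below, and a larger amount of it lowers the CPM of all other genes together. The opposition of the sides is therefore described for scaled values, and the unscaled count does not test it. With RLE size factors, another scaling, the count was again 35.

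**Figure D3:**
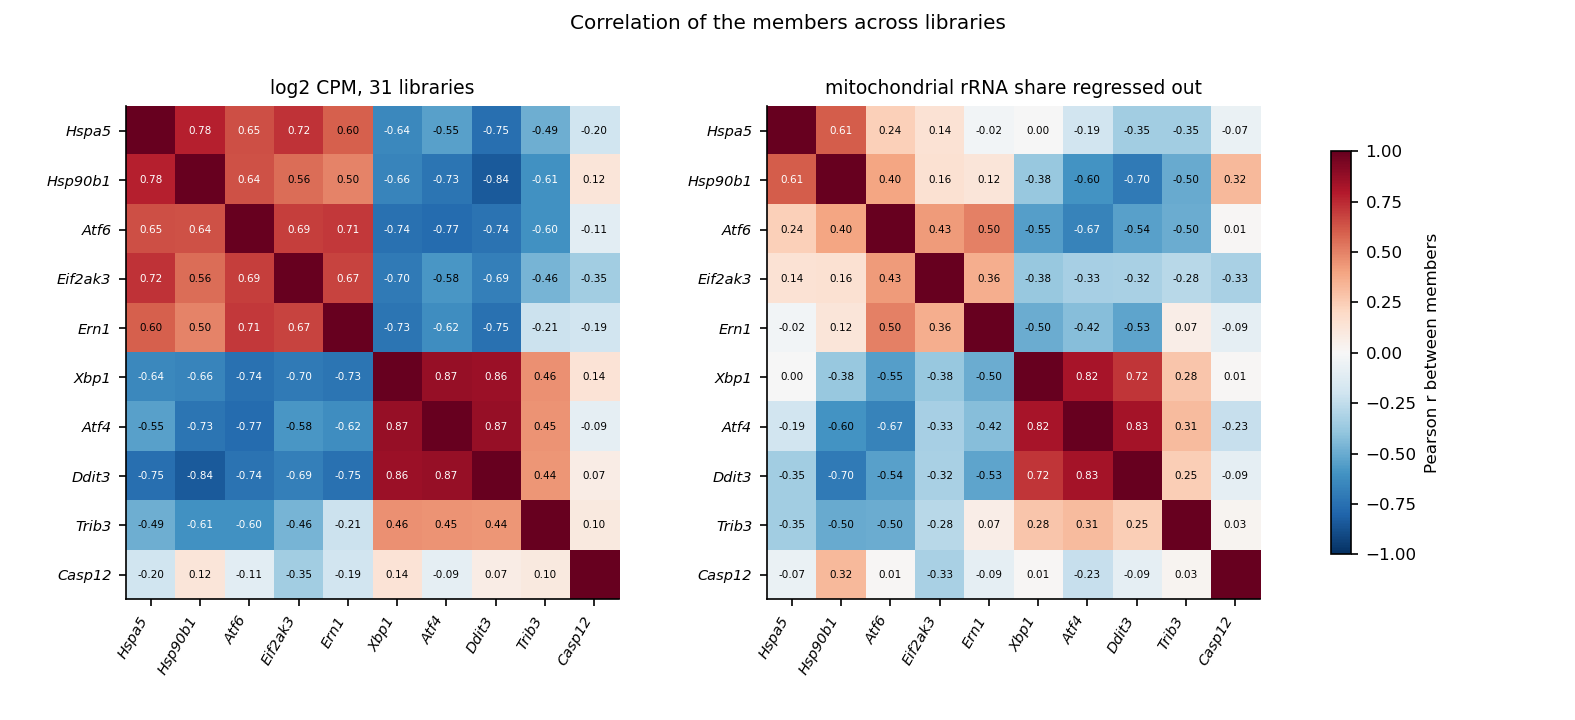
Pearson correlation of log2 CPM between members over 31 libraries, before (left) and after (right) regression of each gene on the log2 share of mitochondrial rRNA; red is positive and blue negative. The chaperone and sensor block and the transcription factor block oppose each other on TMM-scaled values (19 negative pairs called). With unscaled library sizes, which shift all genes other than mitochondrial rRNA together and so do not test this opposition, only 2 negative pairs were called.

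Of the member pairs, Ddit3 with Atf4 was among the closest, although genes that are not members lay closer to each, as given below. The share of all gene pairs with an r this large was not computed. Ddit3 and Atf4 had a Pearson r of 0.872 (0.825 with unscaled sizes; Spearman rho 0.821, permutation p = 1e-05, the smallest 100000 resamples can give, adjusted p = 3.7e-05). The value was 0.884 without the 2 libraries farthest from the median of Ddit3, 0.727 in control and 0.931 in deltamethrin. Atf4 with Xbp1 gave 0.869 (rho 0.811) and Ddit3 with Xbp1 0.859 (rho 0.858), both with an adjusted p of 3.7e-05. The chaperones Hspa5 and Hsp90b1 had an r of 0.776 (rho 0.720, adjusted p = 3.7e-05). Their r was 0.633 without the 2 farthest libraries, 0.798 in control and 0.771 in deltamethrin. The part of their promoter element in this relation was not tested. Of the negative relations, that between Ddit3 and Hsp90b1 was -0.836 (rho -0.774, adjusted p = 3.7e-05), -0.778 without the 2 farthest, -0.814 in control and -0.913 in deltamethrin. With unscaled library sizes it was -0.428 and was not called (adjusted p = 0.0518). Ddit3 with Ern1 was at -0.749 and Atf4 with Atf6 at -0.770, with the larger rho of -0.821 and -0.788. All 35 called pairs had the same sign in both groups, but they were called on both groups together, so this is no independent check. Within control some were small, such as -0.097 for Atf4 with Ern1.

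Trib3 followed the transcription factors more loosely, with r of 0.453 for Atf4 (rho 0.478, adjusted p = 0.0136) and 0.439 for Ddit3 (rho 0.337, adjusted p = 0.0170). Its relation to Ddit3 was 0.674 in control and 0.284 in deltamethrin. It was 0.209 without the 2 libraries farthest from the median of Ddit3, and so depended on those libraries. It was negatively related to Hsp90b1 (r = -0.608, rho -0.404, adjusted p = 0.000744), at -0.498 without the 2 farthest libraries, -0.809 in control and -0.201 in deltamethrin. The relation to Atf6 was of like size (r = -0.604, rho -0.666, adjusted p = 0.00045), at -0.681 without the 2 farthest, -0.824 in control and -0.487 in deltamethrin.

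The composition of the libraries moved with these genes. Ribosomal RNA of the mitochondrion (mt-Rnr1 plus mt-Rnr2) made up 8.49% to 40.2% of the counts in control (median 12.9%) and 7.32% to 26.3% in deltamethrin (median 14.8%), and totals ran from 17570311 to 38680621 counts. Of the 10 members, 9 correlated with the log2 of this share (permutation p adjusted over the 10 under 0.05). The weakest of the 9 was Trib3 (r = 0.394), and 56.5% of all tested genes had an r at least as large in size. An r of at least 0.5 in size was found in 8 members, against 45.1% of all tested genes. Hspa5 had an r of -0.915 (rho -0.848, adjusted p = 3.33e-05), -0.868 without the 2 farthest libraries, -0.934 in control and -0.905 in deltamethrin. Only 0.845% of tested genes had an r as large in size. For the other called members this percentage was much higher, from 18.1% for Eif2ak3 up to 42.6% for Atf4 and 56.5% for Trib3. Relations of their size were therefore common among the tested genes and cannot be read as particular to these members. Eif2ak3 followed at -0.748 (rho -0.745), Ern1 at -0.661 (rho -0.685), Hsp90b1 at -0.643 (rho -0.523; -0.484 without the 2 farthest) and Atf6 at -0.624 (rho -0.647). On the other side stood Ddit3 at 0.715 (rho 0.669), Xbp1 at 0.702 (rho 0.766), Atf4 at 0.525 (rho 0.509) and Trib3 at 0.394 (rho 0.435, adjusted p = 0.0311), while Casp12 was at 0.187 (rho 0.119, adjusted p = 0.317).

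Within control, the value for Atf4 was 0.160, against 0.808 within deltamethrin; the difference was not tested. Unscaled library sizes include the mitochondrial rRNA, so a larger share lowers the CPM of all other genes by construction. With them, r was -0.912 for Hspa5, -0.850 for Atf6 and -0.886 for Eif2ak3. It was 0.346 for Ddit3, 0.128 for Xbp1 and 0.01 for Atf4, and 5 members were called. Because this shift is built in, these values do not test whether the relations of either sign hold. Without control replicate 2, a check chosen after seeing the data, 8 members were called. For these counts of 5 and 8, the percentage of all tested genes as strongly related was not computed.

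**Figure D4:**
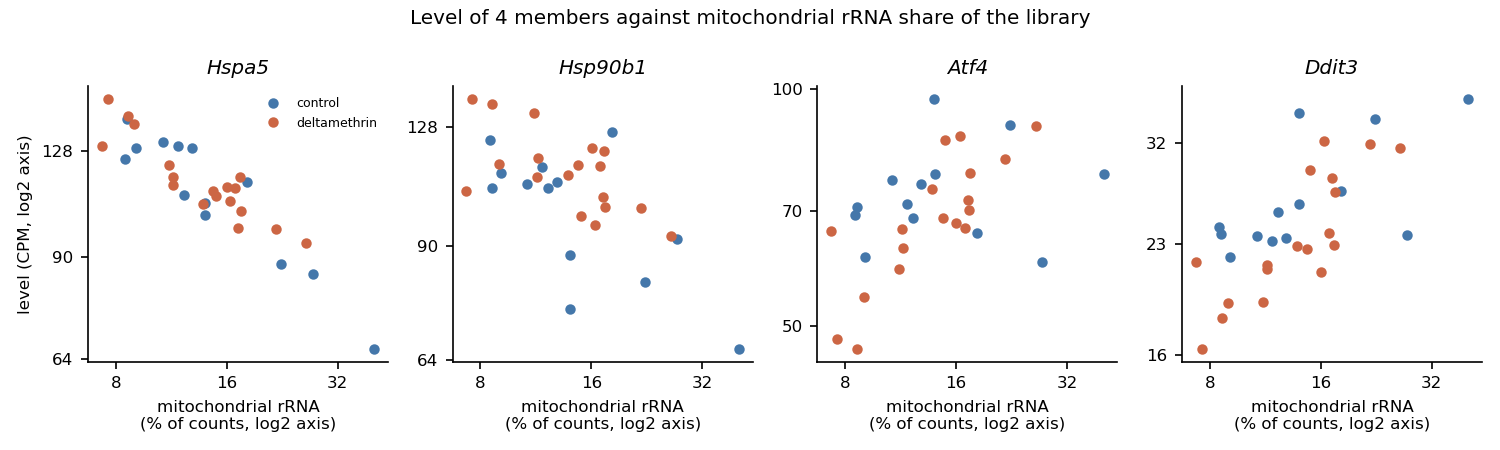
Level of 4 members (CPM, log2 axes) against the share of mitochondrial rRNA in each library (percent, log2 axis), for control (n = 13) and deltamethrin (n = 18). Hspa5 and Hsp90b1 are lower, and Atf4 and Ddit3 higher, in libraries with a larger share on TMM-scaled values; with unscaled library sizes r is 0.01 for Atf4 and 0.346 for Ddit3.

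After regression on the share, the median size of r over the 45 pairs was 0.334, down from 0.618, and 34 of the 35 called pairs kept their sign. The transcription factors stayed close to one another, at 0.833 for Ddit3 with Atf4 and 0.825 for Atf4 with Xbp1. The chaperone pair Hspa5 and Hsp90b1 was at 0.607, and Ddit3 with Hsp90b1 at -0.704. Other relations of Hspa5 were smaller, at -0.350 with Ddit3, 0.143 with Eif2ak3 and 0.00 with Xbp1.

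The sides also differed in gene length. The 5 members that were lower in libraries rich in mitochondrial rRNA had exon lengths of 4032 to 9231 bases, and the 4 called members that were higher had 1713 to 3248. Over the 10 members, Spearman's rho between length and r with the share was -0.782. Over the 109 other pathway genes it was -0.331 and over 19434 tested genes -0.399, values across genes, which are not independent. Among genes of at least 5 CPM on average, the median r was 0.671 for those of up to 2 kilobases and -0.432 for those of 6 to 10 kilobases. Some chaperones shorter than Xbp1 were strongly negative, such as Calr (2880 bases, -0.851) and Pdia4 (2399 bases, -0.903), while Sdf2l1 (1108 bases) was at 0.624 and Manf (3524 bases) at 0.584. The part that length had in the opposing sides of the members was not tested.

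**Figure D5:**
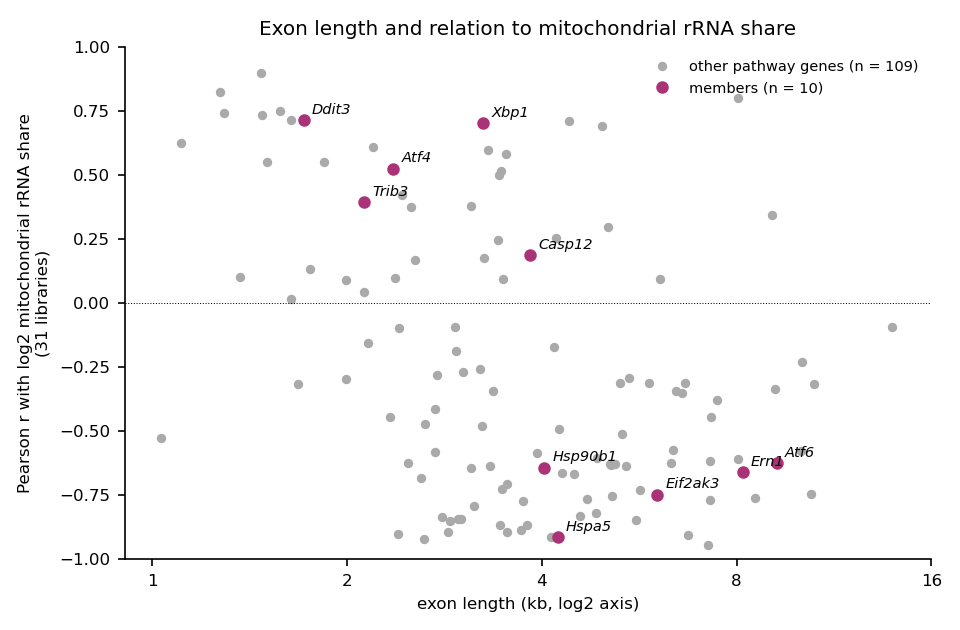
Exon length (kilobases, log2 axis) against the Pearson r of log2 CPM with the log2 share of mitochondrial rRNA over 31 libraries, for the 10 members and 109 other pathway genes, each point a gene. The 4 members of up to 3248 bases and Casp12 lie above 0 and those of at least 4032 bases below it, on TMM-scaled values; with unscaled library sizes the values of Ddit3, Xbp1 and Atf4 are 0.346, 0.128 and 0.01.

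Markers of cell types moved with the members as well. The summed level of 5 neuron markers (Rbfox3, Snap25, Syt1, Tubb3 and Map2) ran from 1790 to 3668 CPM in control and from 2250 to 4130 in deltamethrin, with none at 0 in any library. Its r was 0.842 with Hsp90b1 (rho 0.767), 0.837 with Hspa5 (rho 0.827), 0.820 with Atf6 (rho 0.872) and -0.857 with Ddit3 (rho -0.788), each with a permutation p adjusted over the 10 members of 1.67e-05. For Hspa5 it was 0.7995 without the 2 farthest libraries, 0.822 in control and 0.898 in deltamethrin. For Xbp1 it was -0.827 and for Atf4 -0.757, and for Casp12 -0.153 (adjusted p = 0.413). Other marker sums moved with the members to a like degree, given here as r with no test. Astrocyte markers were at -0.847 with Atf4, -0.827 with Xbp1 and -0.809 with Ddit3, microglia markers at -0.791 with Atf4 and 0.777 with Hsp90b1, and blood markers at 0.834 with Ddit3 and -0.776 with Hsp90b1. Oligodendrocyte markers stayed between -0.159 (Atf6) and 0.340 (Hspa5). These relations were chosen after seeing the data, and their part in the correlations of the members was not tested. The share of all tested genes with an r as large with these sums was not computed. The relations therefore cannot be read as particular to the members. In RNA from whole tissue, fewer cells of a type and less RNA per cell cannot be told apart.

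Between the groups, the marker lists also differed in direction. All 7 choroid plexus markers were lower in deltamethrin, 2 with an unadjusted p under 0.05, against 4.37% of all genes, and none after adjustment (edgeR). Their sum ran from 266 to 1286 CPM in control and from 247 to 723 in deltamethrin, with none at 0 in a library. With the choroid plexus score as a covariate, Hsp90b1 had a log2 fold change of 0.15 and an unadjusted p of 0.0693. All 5 blood markers were lower and all 5 astrocyte markers higher, with no unadjusted p under 0.05 in either list, and all 5 endothelium markers were higher, 2 with an unadjusted p under 0.05 (smallest 0.00407). Of the meninges and fibroblast markers 4 of 5 were higher, 2 with an unadjusted p under 0.05 (smallest 0.00418). In the list of B and plasma cells the 1 marker with enough counts, Ighm, was lower (unadjusted p = 0.000244). Of the microglia markers 3 were higher and 2 lower, 1 of the lower with an unadjusted p under 0.05 (edgeR). The 2 skeletal muscle markers with enough counts were lower, 1 with an unadjusted p under 0.05. Neuron markers had 3 higher and 2 lower, and oligodendrocyte markers 1 higher and 4 lower, with no unadjusted p under 0.05 in either list. No marker had an adjusted p under 0.05. The markers of neurons, astrocytes, oligodendrocytes and microglia were present in every library. Of the pituitary, B cell and skeletal muscle markers, 3, 4 and 2 of 5 were at 0 in at least 1 library.

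The genes whose library-to-library pattern was most like that of 3 members were found by Pearson r after subtraction of the group means, over 31 libraries. For Hspa5 they were Hyou1 (r = 0.941), which encodes an ER chaperone, Fam234b (0.938) and Alg2 (0.934), a mannosyltransferase of N-glycan synthesis in the ER membrane. After regression on the mitochondrial rRNA share these were 0.586, 0.546 and 0.588. For Atf4 they were Ube2m (0.949), an enzyme of NEDD8 conjugation, Stx4a (0.945), a membrane fusion protein, and Rundc3a (0.941), and after the regression they were 0.935, 0.927 and 0.926. For Ddit3 they were Cdc34 (0.968), a ubiquitin-conjugating enzyme, Cox4i1 (0.964), a subunit of cytochrome c oxidase, and Dgcr6 (0.963), with 0.934, 0.927 and 0.919 after it. None of the 3 genes closest to each of these members was itself a member.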

How the data were processed

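Total RNA libraries of 31 mouse brain samples, from homogenised half-brain aliquots extracted with a column kit and sequenced on an Illumina NovaSeq per the labels' protocols, were grouped by their agent label into control (13) and deltamethrin (18). The table the authors deposited holds raw read counts by Ensembl gene ID, without normalization. The submitters' processing notes name Trimmomatic, HISAT2, SAMtools, MultiQC and the build GRCm38. The counting tool, annotation and use of strand are not given in the sources used here. Columns were matched to samples through the sample titles, and 0 columns were left over. Of 48795 genes, 10581 had no counts, and 48349 IDs were found in GENCODE M21 (GRCm38), whose coordinates and exon lengths are used.

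Genes were kept with filterByExpr of edgeR (version 4.0.16, R 4.3.3; minimum count 10, minimum total 15), which left 19529. The comparison used edgeR's quasi-likelihood F-test (TMM factors, robust=TRUE, no covariates) and Benjamini-Hochberg adjustment over all genes tested. Standard errors were obtained as |log2 fold change|/√F, and intervals are 95%. Log2 CPM has a prior count of 2. Correlations have two-sided permutation p-values (100000 resamples). The 2 farthest libraries that were left out differ between checks. For a pair, distance was taken from the median of its earlier gene in a fixed order. The order is Hspa5, Ddit3, Atf4, Xbp1, Atf6, Ern1, Eif2ak3, Trib3, Hsp90b1, Casp12. For the mitochondrial rRNA share and the neuron marker sum, distance was taken on that share or sum. The fit and the code were tested on simulated data. Totals of 17570311 to 38680621 counts per library set the precision, and counting intervals cover counting error only.

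Alternatives were scaling by RLE or upper quartile factors or by none, 2 other count filters, DESeq2 (version 1.42.0), limma voom (limma version 3.58.1), robust=FALSE, 3 covariates and each library left out in turn. The members and lists were chosen with earlier results of these data known. The named genes are the 10 members, 20 textbook targets or partners, up to 5 other list genes with the smallest unadjusted p under 0.05 (there were none), and for Hspa5, Atf4 and Ddit3 the 3 genes most like them. Bak1, Bloc1s1, the other eIF2α kinases, Ighm, and genes named as examples of length, overlap or markers, were picked after their values were seen. Replicate numbers follow accession order and pair nothing. Kinase activity measurements were not analysed here.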

Additional observations from a re-analysis of the deposited data

How the results depend on the processing

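No member and no other pathway gene had an adjusted p under 0.05 in any of 11 alternatives or 31 fits that left out a library (edgeR, DESeq2 and limma voom included). The count of members with an unadjusted p under 0.05 was 1, and became 0 with no scaling factors and with the choroid plexus score as covariate, 2 with the mitochondrial rRNA share as covariate (Ddit3 added, log2 fold change -0.15, p = 0.0339), and 0 to 2 with a library left out (2 without deltamethrin replicate 9, where Ddit3 had p = 0.0491). For the other pathway genes this count was 0, and became 2 with RLE or upper quartile factors, 1 with no scaling factors, 3 under a mean count minimum of 50, 3 with DESeq2, 3 with limma voom, 9 with the mitochondrial rRNA covariate, 1 with the choroid plexus covariate, 1 with the title number covariate, and 0 to 8 with a library left out (8 without control replicate 4). The count of correlated member pairs fell from 35 to 15, and that of members correlated with the mitochondrial rRNA share from 9 to 5, with no scaling factors. The log2 fold change of Hsp90b1 was 0.15 to 0.20 over the alternatives (p 0.0190 to 0.0995, under 0.05 in 9 of 11; 0.20 with no scaling factors) and 0.12 to 0.20 with a library left out. Signs turned for Atf6 (0.022 with no scaling factors; 0.0053 without control replicate 4, in a range of -0.041 to 0.0053 with a library left out), Eif2ak3 (-0.0063 with the mitochondrial rRNA covariate; -0.0095, -0.0041 and -0.0024 without control replicates 2 and 7 and deltamethrin replicate 1, range -0.0095 to 0.043), Trib3 (0.024 with limma voom; 0.038 without control replicate 10, range -0.16 to 0.038) and Hspa5 (-0.00031 without control replicate 2, range to 0.089). The cause was not tested. Under the alternatives 102 fold changes of members kept their sign and side of 0.05, 3 turned, 2 lost and 1 gained an unadjusted p under 0.05; with a library left out 291 kept them, 6 turned, 12 lost and 1 gained it. Trib3 and Casp12 were not in the fit with that count minimum. No paired analysis was possible because numbers given in accession order pair no samples. Depth limits Trib3 and Casp12, with 9 to 49 counts in a library.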
